A study of Mus musculus with 4 samples.

Results

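Genes of the Notch pathway were read in RNA of sorted adult mouse neural stem cells. The members were 39 genes chosen by symbol: 7 ligands, 4 receptors, 5 enzymes that add sugars to the receptor, 6 proteases or protease subunits, 5 nuclear factors, 5 adaptors and ubiquitin ligases, and 7 target genes. All 39 were found by symbol in the annotation and had reads, among 19914 genes with a count in any library. RNA sequencing was done on 4 libraries that form 1 group. Their labels describe untreated, activated neural stem cells (Prom1+, EGFR+, GFAP+) of 3-month-old animals on a mixed CD1/C57BL/6 background, sorted by FACS; the mice carried a gfap:GFP transgene, whose Gfap promoter is active in stem cells and astrocytes alike. The text on the series' design differs: it names quiescent cells and an injection of aCSF or of miR204 antagomers. None of the 4 labels gives such an agent, so the labels were followed, no groups were compared, and any treatment difference would sit inside the spreads given below.

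Notch signalling passes between touching cells. A Delta-like or Jagged ligand on a neighbour pulls on the receptor, an ADAM protease and then gamma-secretase cut it, and the freed intracellular part enters the nucleus, where it binds Rbpj and a Mastermind protein and switches on Hes and Hey repressors. In the adult ventricular wall the pathway is known for holding neural stem cells in an undifferentiated state.

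The libraries held 16978938 to 23727664 estimated counts. RNA of the 3 genes used for sorting was present in each library: Prom1 was lowest, at 14.6 to 31.7 TPM (a transcript level corrected for transcript length and scaled to the same total in each library), and Gfap highest on average, at 107 to 227 TPM. Markers of other cells were present too. The summed level of 8 oligodendrocyte markers ran from 742 TPM in library 1 to 2398 TPM in library 4, of 8 microglia markers from 117 to 419 TPM, of 8 ependymal markers from 601 to 1211 TPM, and of 8 mature neuron markers from 1050 to 1303 TPM, while 3 of 10 endothelial or mural markers had no count. In bulk RNA, fewer cells of a type cannot be told apart from less RNA per cell, and a pathway gene read here may come from any of these cells. Separate animals or pools are not named for the libraries, so SDs and p-values measure only the spread between these samples, which may be technical.

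Members of every role, from ligand to target, were present at the RNA level. Of the 39 members 36 stood above 1 TPM and none below it (limma, adjusted p under 0.05 over all genes, n = 4). The other 3, Jag2, Dlk2 and Maml1, passed in neither direction. The 36 are 92.3% of the members, beside 62.8% of all genes tested and 71.6% of protein-coding genes; 23.2% of all genes stood below 1 TPM. With edgeR's quasi-likelihood test 38 members were called above, and 64.5% of all genes. With protein-coding transcripts only, 35 members were called, and 71% of the genes tested that way. The median member stood at 22.1 TPM, against 8.34 TPM over all genes tested and 12.5 TPM over protein-coding genes. At least 10 TPM was reached by 28 members (71.8%), and by 47.4% of all genes.

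**Figure D1:**
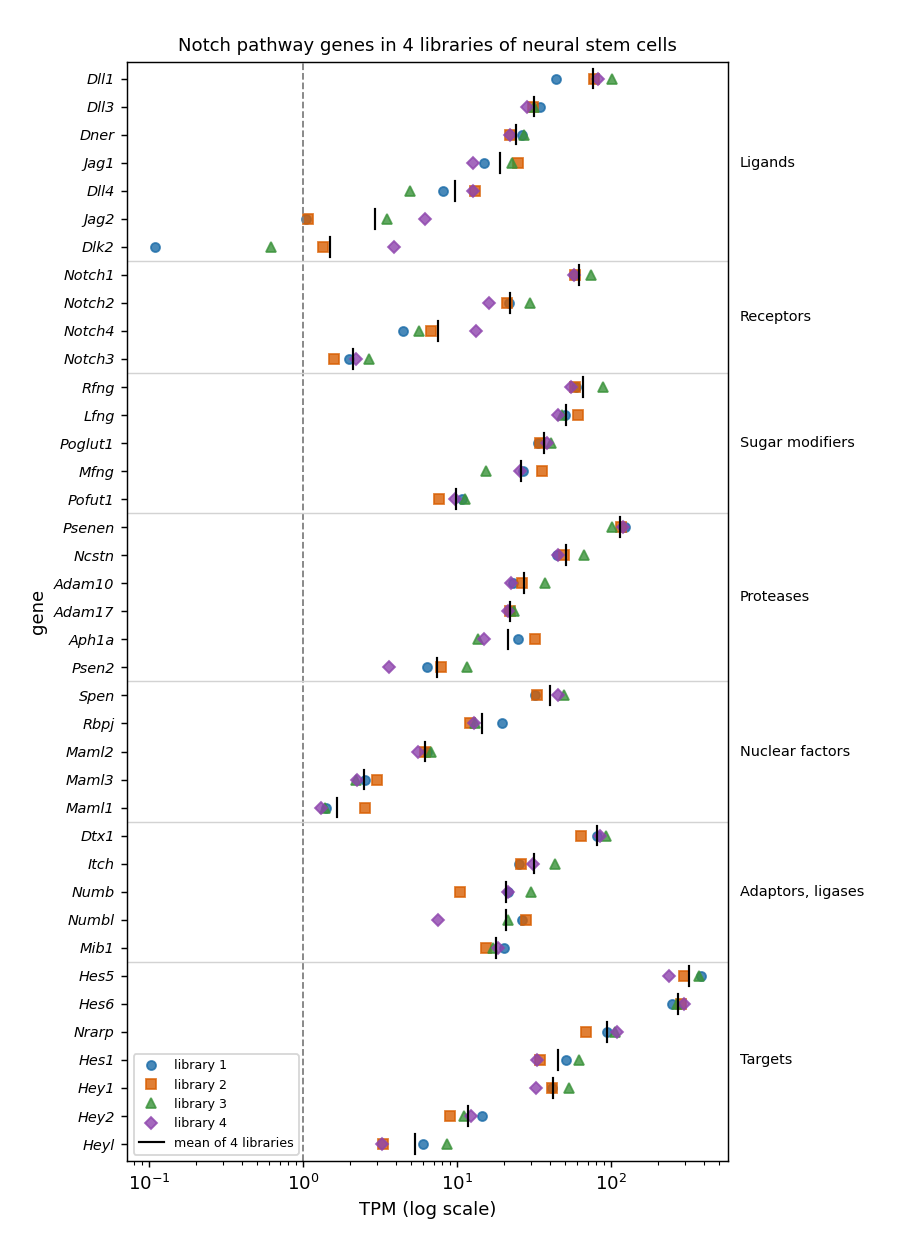
Level of each of the 39 Notch pathway genes in TPM on a log axis, grouped by role and ordered by mean within a role; each symbol is a library, the black tick is the mean of 4 libraries and the dashed line is 1 TPM. Hes5 and Hes6 stand highest, at means of 321 and 273 TPM, and Dlk2 spreads most, from 0.108 to 3.90 TPM.

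Among the receptors, which span the membrane and carry the signal to the nucleus, Notch1 led. Notch1 (chromosome 2, 26457903 to 26516663, mm10) measured 57.6, 58.4, 73.7 and 57.4 TPM in libraries 1 to 4. Notch2 measured 21.5, 21.1, 29.5 and 16.1 TPM in the same order. Library 3 was the highest for both, though not for the full-length form Notch1-201, which read 37.4, 40.8, 39.3 and 41.6 TPM, and the receptors did not overlap: the lowest Notch1 value was above the highest Notch2 value. Within libraries Notch1 was 2.76-fold higher than Notch2, with a log2 ratio of 1.47 ± 0.21 (SD, n = 4), in 4 of 4 libraries. Notch3, a receptor best known from vascular mural cells and also present in neural stem cells, stood at 1.99, 1.57, 2.65 and 2.20 TPM. Its level was above 1 TPM (limma, adjusted p = 0.0243), but the call was lost without library 1, library 3 or library 4 (limma, adjusted p = 0.0596, 0.0891 and 0.0582).

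Notch4, known from endothelial cells, read 4.44, 6.78, 5.59 and 13.2 TPM, with library 4 above the others. Little of this TPM lay on coding transcripts, though most estimated counts did. The coding form Notch4-201, of 6591 bases, held 69, 61, 102 and 294 of the gene's 96, 92, 123 and 354 counts in libraries 1 to 4. Protein-coding transcripts of Notch4 held 18.2 ± 7.09% of its TPM (SD, n = 4), or 1.41 ± 1.04 TPM, and with those alone the gene passed in neither direction (limma, adjusted p = 0.493). Its leading transcript by TPM was Notch4-210, with 3.20 ± 1.505 TPM on 27, 6, 21 and 30 estimated counts. This is a non-coding processed transcript of 619 bases at chromosome 17, 34587041 to 34587818. It lies over exons 29 and 30 of the 30 exons of the coding form. TPM corrects for length, so such short transcripts reach a given TPM on few counts. The order of Notch4 and Notch3 was lost without the non-coding transcripts. Notch4 was 2.58-fold higher in 4 of 4 libraries with all transcripts summed. With coding transcripts only, the log2 ratio of Notch3 over Notch4 was 0.44 ± 0.49 (SD, n = 4), within its spread. Of 10 endothelial or mural markers, 3 had no count (Cdh5, Kcnj8 and Vtn), 5 were below 1 TPM, and 2 were above it, Pdgfrb at 31.8 TPM and Pecam1 at 3.87 TPM, of which 0.370 ± 0.492 TPM (SD, n = 4) lay on coding transcripts, and their summed level was 24.7 to 43.7 TPM per library.

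The ligands spanned a wide range. Dll1, the Delta-like ligand of neural progenitors (chromosome 17, 15367354 to 15376872), led with 43.6, 77.0, 101 and 82.2 TPM in libraries 1 to 4. Library 1 stood below the other 3 libraries. In that library the oligodendrocyte sum (742 against 1863 to 2398 TPM), the microglia sum (117 against 300 to 419 TPM) and the ependymal sum (601 against 795 to 1211 TPM) were lowest as well, with 7 of 8, 8 of 8 and 7 of 8 of their markers lowest there. The erythroid sum (59.9 against 449 to 2342 TPM) and the choroid plexus sum (12.8 against 16.6 to 31.2 TPM) were lowest there too. Neuroblast markers went the other way: their sum was 410 TPM in library 1 against 223 to 281 TPM, with 5 of 7 highest there. So did mature neuron markers, at 1303 against 1050 to 1111 TPM, with 6 of 8 highest there. The part of any of these cells in the Dll1 level was not tested. Dll3, which is retained inside the cell and dampens signalling in the cell that makes it, was among the steadiest members at 34.3, 31.1, 31.6 and 28.5 TPM. Dner, a transmembrane protein with EGF repeats described as a non-classical ligand of neurons and glia, followed at 26.2, 21.8, 26.9 and 21.9 TPM.

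Jag1, the Jagged ligand of the stem cell niche, measured 14.9, 24.9, 22.8 and 12.7 TPM. Dll4, the Delta-like ligand of sprouting vessels, measured 8.05, 13.1, 4.90 and 12.7 TPM. Jag1 and Dll4 overlapped, and in library 4 they were nearly level (log2 ratio -0.01). All reads assigned to Dll4 lay on its coding transcript. Jag2 read 1.04, 1.08, 3.48 and 6.14 TPM and was not separated from 1 TPM (limma, adjusted p = 0.0961). Dlk2, a Delta-like protein described as lacking the receptor-binding DSL domain, read 0.108, 1.34, 0.618 and 3.90 TPM (limma, adjusted p = 0.818). Both were highest in library 4. Their means were 2.93 and 1.49 TPM with library 4 and 1.87 and 0.690 TPM without it. In library 4 the erythroid marker sum was 2342 TPM against 59.9 to 641 TPM, with 5 of 5 of its genes highest there, and 7 of 8 oligodendrocyte markers were highest there too. Their part in the levels of Jag2, Dlk2 and Notch4 was not tested. Dlk2 rested on 2, 26, 9 and 82 estimated counts.

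Within libraries Dll1 was 2.28-fold higher than Dll3, 3.85-fold higher than Jag1 and 7.32-fold higher than Dll4, each in 4 of 4 libraries. The first ratio was smallest in library 1, at 0.34 on the log2 scale, against 1.28 to 1.64 in the others. Further down the order of ligands, Dner and Jag1, Jag1 and Dll4, and Jag2 and Dlk2 did not differ beyond their spread. The leading receptor and the leading ligand did not differ beyond their spread: the log2 ratio of Notch1 over Dll1 was -0.24 ± 0.43 (SD, n = 4), with 3 of 4 libraries on the side of Dll1 (exact sign-flip test, two-sided, p = 0.375). Nor did Notch2 and Jag1, with a log2 ratio of 0.24 ± 0.32 (exact sign-flip test, p = 0.25). With 4 libraries the exact sign-flip test cannot go below p = 0.125, so it cannot pass 0.05 for any pair.

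The fringe enzymes lengthen the O-fucose sugars of the receptor and so change which ligand it answers. All 3 were present. Rfng measured 59.1, 58.1, 88.7 and 54.6 TPM, Lfng 50.2, 60.6, 47.7 and 44.7 TPM, and Mfng 26.6, 35.6, 15.3 and 25.4 TPM. Library 3 was the highest for Rfng and the lowest for Mfng. Lfng was 2.002-fold and Rfng 2.52-fold higher than Mfng, each in 4 of 4 libraries, while Rfng and Lfng did not differ beyond their spread (log2 ratio 0.33 ± 0.39, SD, n = 4). Poglut1, which adds O-glucose to the receptor, measured 33.4, 34.2, 40.4 and 38.3 TPM, and was 3.51-fold higher than Pofut1, which adds the O-fucose that fringe extends and stood at 7.56 to 11.2 TPM. Of the Poglut1 level 52.3 ± 8.08% lay on coding transcripts (SD, n = 4), and 12.9 ± 2.94 TPM lay on the retained-intron transcript Poglut1-205.

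Of the proteases that cut the receptor, all 6 members were above 1 TPM. Adam10, the enzyme of the first cut after ligand binding, measured 23.1, 26.4, 37.1 and 22.3 TPM. Adam17, a related sheddase, had the smallest spread of all members, at 21.6, 21.8, 23.3 and 21.2 TPM. Adam10 stood above it in 4 of 4 libraries but only 1.21-fold, and most of that came from library 3, where the log2 ratio was 0.65 against 0.07 to 0.26 in the others.

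The gamma-secretase subunits stood at unequal RNA levels. Psenen, the small subunit that activates the complex, measured 122, 116, 101 and 119 TPM. Ncstn, the subunit that receives the substrate, measured 44.0, 49.1, 66.2 and 45.0 TPM. Aph1a, the scaffold subunit, measured 24.7, 31.7, 13.6 and 14.8 TPM. Psen2, one of the presenilins that hold the active site, was lowest at 6.33, 7.84, 11.6 and 3.61 TPM. Psenen was 5.48-fold higher than Aph1a, and Ncstn was 6.57-fold higher than Psen2, each in 4 of 4 libraries. Psenen is a short transcript: its lead over Ncstn of 2.24-fold turned to a log2 ratio of -1.05 when counts were not corrected for length.

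The nuclear factors were the lowest of the roles, with a median of 6.18 TPM. Rbpj, the DNA-binding partner of the cut receptor, measured 19.6, 12.1, 13.1 and 12.8 TPM, with library 1 above the rest. The Mastermind coactivators were scarce: Maml2 measured 5.56 to 6.71 TPM, Maml3 2.19 to 2.99 TPM and Maml1 1.30 to 2.52 TPM. Maml2 exceeded Maml1 2.74-fold in 4 of 4 libraries. Maml1 was not separated from 1 TPM (limma, adjusted p = 0.108). Spen, the corepressor that Rbpj recruits when no cut receptor is bound, measured 31.9, 32.6, 49.2 and 45.2 TPM, apparently 2.64-fold above Rbpj. By TPM, only 29.8 ± 2.67% of the Spen level (SD, n = 4) lay on coding transcripts. Most estimated counts did lie there. The coding forms Spen-201 and Spen-202, of 12082 and 12299 bases, held 1001 to 1120 and 654 to 1645 counts. A processed transcript of 680 bases, Spen-205 (chromosome 4, 141521803 to 141538253), held 26.3 ± 7.04 TPM. Its counts were 169, 152, 196 and 250 of the gene's 1967, 2005, 1923 and 3033. Spen-205 covers parts of the first 2 exons of the coding form and 269 bases of its introns. With coding transcripts only, Spen stood at 11.8 ± 2.29 TPM, and the order was lost: the log2 ratio of Rbpj over Spen was then 0.23 ± 0.48 (SD, n = 4), within its spread.

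Among adaptors and ubiquitin ligases, Dtx1, a Deltex ligase that is also a Notch target in other tissues, led with 81.0, 63.3, 91.8 and 84.7 TPM (chromosome 5, 120680202 to 120711927). Itch, a ligase that marks the receptor for breakdown, followed at 25.0, 26.0, 43.1 and 31.1 TPM. Mib1, the ligase that lets a ligand be pulled into the sending cell, measured 19.98, 15.3, 17.1 and 18.4 TPM. Numb and Numbl, related adaptors that hold Notch signalling down, had equal means of 20.7 TPM but were lowest in different libraries. Numb measured 21.2, 10.5, 29.9 and 21.3 TPM, lowest in library 2, and Numbl measured 26.4, 27.7, 21.2 and 7.46 TPM, lowest in library 4. Their log2 ratio ran from -1.33 in library 2 to 1.40 in library 4, with 2 libraries on each side (mean 0.06 ± 1.16, SD, n = 4).

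The genes listed as targets reached the highest levels of the members. Whether Notch drives any of them in these cells, Hes6 included, was not tested. Hes5, a repressor that answers Notch directly in neural progenitors, measured 380, 294, 371 and 238 TPM. Hes6, a relative that opposes Hes1 and is known from cells entering neurogenesis, measured 247, 281, 267 and 295 TPM. Both stood above every other member in every library. Hes5 exceeded Hes6 in 3 of 4 libraries and was below it in library 4, so the pair did not differ beyond its spread (log2 ratio 0.21 ± 0.42, SD, n = 4). Nrarp, an ankyrin-repeat protein that is induced by Notch and limits it, measured 94.0, 68.3, 105 and 109 TPM. Hes1 measured 50.9, 34.2, 61.9 and 33.1 TPM, and Hey1 41.0, 41.2, 53.2 and 32.5 TPM. Hes1 and Hey1 overlapped and did not differ beyond their spread (log2 ratio 0.07 ± 0.25). Hes5 was 7.11-fold higher than Hes1 in 4 of 4 libraries. Hey2 (14.4, 8.95, 10.98 and 12.3 TPM) and Heyl (5.95, 3.28, 8.60 and 3.23 TPM) were lowest, and Hey1 exceeded them 3.39-fold and 7.18-fold, each in 4 of 4 libraries.

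Target promoters are shown because Rbpj reads a short DNA motif, TGGGAA, which is TTCCCA when it lies on the other strand. Only these exact letters were searched. They are those of Hes5, the highest target, and of Hey2 and Nrarp, a lower target with these letters and a higher one without them. The sequences are the 250 bases before the RefSeq start site (GRCm38.p6), 5′ to 3′ on the strand of the gene, with the motif in capitals. They come from chr4:154960673-154960922 on the plus strand for Hes5, chr10:30842784-30843033 on the minus strand for Hey2, and chr2:25180508-25180757 on the plus strand for Nrarp.
Hes5: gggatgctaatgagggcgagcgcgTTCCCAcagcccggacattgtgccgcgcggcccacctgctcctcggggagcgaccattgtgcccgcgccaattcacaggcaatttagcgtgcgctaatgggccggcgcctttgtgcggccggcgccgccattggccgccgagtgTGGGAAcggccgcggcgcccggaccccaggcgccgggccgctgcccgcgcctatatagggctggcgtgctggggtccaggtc
Hey2: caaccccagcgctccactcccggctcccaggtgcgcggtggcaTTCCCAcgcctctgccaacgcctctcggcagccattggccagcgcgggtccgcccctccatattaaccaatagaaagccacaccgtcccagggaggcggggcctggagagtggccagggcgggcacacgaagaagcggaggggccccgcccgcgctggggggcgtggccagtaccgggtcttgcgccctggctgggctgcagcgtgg
Nrarp: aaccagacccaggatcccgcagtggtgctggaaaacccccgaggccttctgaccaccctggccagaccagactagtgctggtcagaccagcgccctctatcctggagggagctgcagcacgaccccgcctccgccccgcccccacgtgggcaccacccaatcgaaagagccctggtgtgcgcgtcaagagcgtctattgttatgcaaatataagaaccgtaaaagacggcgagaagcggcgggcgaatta

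Hes5, the highest member, holds the letters at 2 places, beginning 226 and 82 bases before its start. Hey2, at a mean of 11.6 TPM, holds them once, beginning 207 bases before its start, and Nrarp, at 94.1 TPM, holds them nowhere in this window. Neither of the 2 windows of Hes6 holds them. Of all promoter windows of this length 21.6% hold the motif on either strand and 2.76% hold it at least 2 times. Among members, 33 had a window, and 11 of their 42 windows (26.2%) hold it. That share is near that of all promoters. Of the targets only 4 had a window, and Hes1, Hey1 and Heyl had none. A window of Lfng and a window of Rbpj hold the motif 2 times as well. A match of letters is a description and does not show binding. A window without them says nothing about sites with other letters or sites elsewhere.

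Genes around the pathway were read from a list of 60 others. The annotation held 59 of them, of which 50 were above 1 TPM, 4 below it, 3 in neither direction and 2 without a count. Of all genes tested 62.8% stood above 1 TPM, and of protein-coding genes 71.6%, so the counts below describe the lists only. Corepressors stood highest, with 15 of 15 above 1 TPM. Among them were Aes, a Groucho-related protein, at 543 ± 34.9 TPM (SD, n = 4), Ctbp1 at 239 ± 16.6 TPM, and L3mbtl3 lowest at 6.19 ± 1.87 TPM. Of the coactivators 7 of 7 were above it, led by Snw1 (68.2 ± 13.7 TPM) and Kat2a (36.8 ± 5.97 TPM), with Cdk8 lowest (10.8 ± 5.44 TPM). Of the ubiquitin ligases and trafficking proteins 14 of 14 were above it, led by Nedd4 (286 ± 31.2 TPM) and Dtx3 (188 ± 7.71 TPM), with Dtx3l lowest (2.73 ± 0.374 TPM). Of the sugar and cleavage enzymes and their partners 8 of 8 were above it, with Aph1b lowest (7.93 ± 2.44 TPM). The tetraspanins Tspan5 (56.0 ± 5.74 TPM) and Tspan14 (38.7 ± 5.02 TPM), which escort Adam10, led. On coding transcripts their order was reversed, with Tspan5 at 22.7 ± 3.60 TPM and Tspan14 at 38.7 ± 5.02 TPM. Of 5 other ligands 4 were above 1 TPM, led by Mfap2 (183 ± 17.5 TPM) and Cntn1 (17.98 ± 4.09 TPM). Mfap5 (0.482 ± 0.655 TPM) passed in neither direction.

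The other Hes relatives were mostly near or below 1 TPM. Helt, a Hes-related repressor of GABAergic progenitors, was the exception among 4 relatives, at 32.3, 40.4, 49.5 and 59.4 TPM, about the level of Hes1. Hes2 stood below 1 TPM, Hes7 (0.638 ± 0.512 TPM) passed in neither direction, and Hes3 had no count, which allows up to 0.164 TPM at 3 counts. Of the proneural factors, whose transcription Hes proteins repress, Neurog1, Neurog2 and Neurod1 were below 1 TPM, Neurod4 (1.58 ± 0.998 TPM) passed in neither direction and Atoh1 had no count, which allows up to 0.139 TPM. These limits cover counting error only.

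Ratios within libraries were read for 30 pairs of members. In 24 pairs all 4 libraries had the same direction and the mean exceeded the SD. The other 6 were Notch1 and Dll1, Notch2 and Jag1, Rfng and Lfng, Numb and Numbl, Hes5 and Hes6, and Hes1 and Hey1. Of 32 pairs of neighbours in the order of levels within a role, 22 met the same rule, among them 3 of 3 neighbours for the receptors and 4 of 4 for the nuclear factors. That order was taken from the same 4 libraries, which favours agreement, and no other gene pairs were counted. These counts are descriptions.

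**Figure D2:**
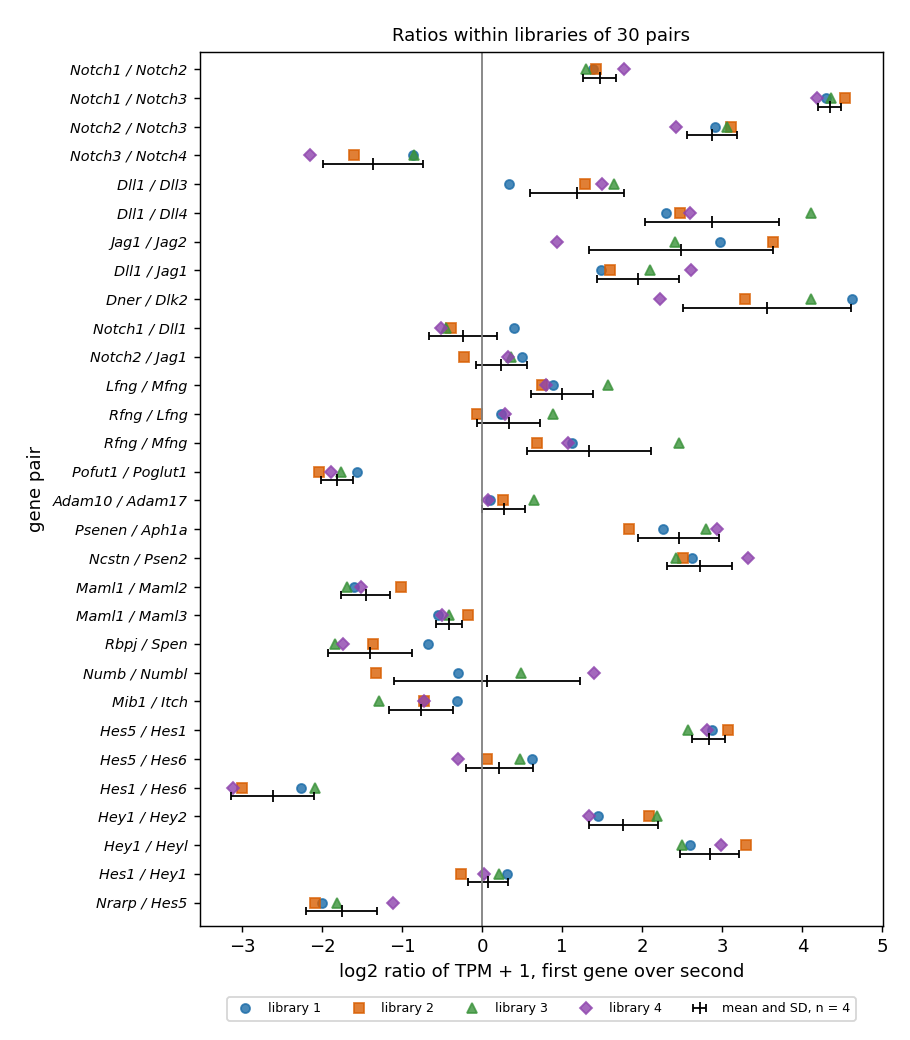
Log2 ratio of TPM + 1 within each library for 30 pairs of Notch pathway genes, first gene over second; symbols are libraries and the black bar below them is the mean with its SD (n = 4). The ratio of Numb over Numbl runs from -1.33 to 1.40, while that of Notch1 over Notch3 stays between 4.19 and 4.53.

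By role, the median of log2(TPM + 1) over the targets was higher than that over the receptors by 1.80 ± 0.51 (SD, n = 4), and in each library. The median over the receptors was lower than that over the ligands in libraries 1 to 3, by differences of -0.53, -0.80 and -0.75, and higher in library 4, by 0.19. The mean difference of receptors minus ligands, -0.47 ± 0.45, was close to its spread. It was -1.19 with coding transcripts only and 0.0081 with means of members in place of medians. The roles hold different genes, so these are descriptions of the lists.

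The spread between libraries differed widely among the members. Over the 28 members of at least 10 TPM, the median SD of log2(TPM + 1) was 0.30, against 0.25 over all 9433 genes at that level. The steadiest of the 39 were Adam17 (SD 0.057 on the log2 scale), Maml2 (0.097), Dll3 (0.11) and Hes6 (0.11). The least steady were Dlk2 (0.91), Jag2 (0.89), Numbl (0.82), Psen2 (0.60), Numb (0.60) and Notch4 (0.60). Library 3 was the highest for 15 of the 28 members of at least 10 TPM (53.6%) and for 38.6% of all genes at that level. Libraries 1, 2 and 4 were the highest for 6, 5 and 2 of these members, beside 19%, 15.5% and 26.8% of all genes. Stem cell core markers did the same, with 7 of 8 highest in library 3, and immediate early genes, which answer a stimulus within minutes, too, with 7 of 8. Mitochondrial genes, which share the fixed total of TPM, held 13.5% of it in library 3, the least. They held 16.6, 18.4 and 15.7% in libraries 1, 2 and 4. The part of any of these in the members' levels was not tested. Library 4 was the lowest for 12 of the 28 members, and for 24.1% of all genes at that level. Libraries 1, 2 and 3 were the lowest for 6, 7 and 3 members, beside 30%, 32.6% and 13.2% of all genes. In library 4 7 of 8 immediate early genes were lowest too, at a sum of 3423 TPM against 4607 to 8239 TPM.

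**Figure D3:**
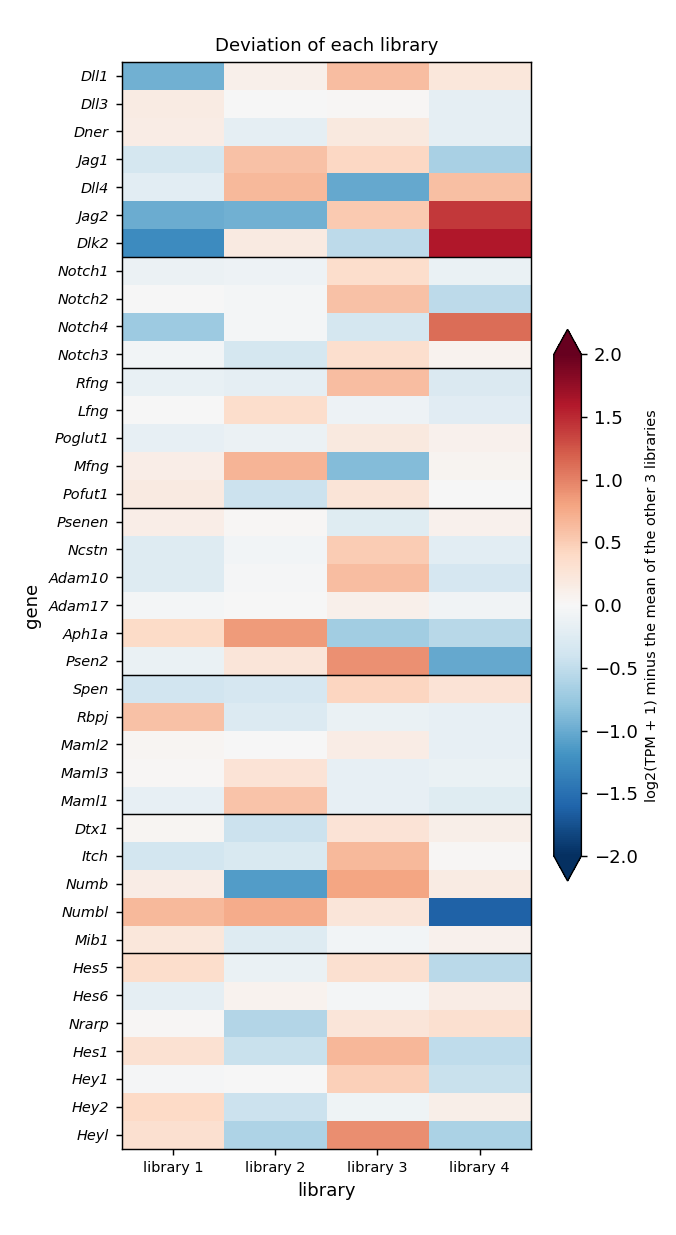
Difference of each library's log2(TPM + 1) from the mean of the other 3 libraries, for each of the 39 Notch pathway genes in order of role and level; red is higher and blue is lower. Library 4 is high for Jag2, Dlk2 and Notch4 and low for Numbl, and Hes1, Hes5 and Heyl are above 0 in libraries 1 and 3 and below 0 in libraries 2 and 4.

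Among the targets, Hes1, Hes5 and Heyl were above the mean of the other 3 libraries in libraries 1 and 3, and below it in libraries 2 and 4. They were picked out after their values were seen. Relative to the other 3 libraries, Hes1 differed by 0.30, -0.45, 0.67 and -0.51 on the log2 scale in libraries 1 to 4. Hes5 differed by 0.36, -0.13, 0.31 and -0.54, and Heyl by 0.32, -0.62, 0.94 and -0.64. The same signs were seen in 7 of the 39 members, and in 10.2% of all genes tested. Among members of at least 10 TPM they were seen in 4 of 28, near the 13.7% of all genes at that level. Beside these targets the members were the ligands Dll3 and Dner, Pofut1 and Maml2. The other 4 targets did not have them: Hes6 and Nrarp were highest in library 4, Hey2 in library 1 and Hey1 in library 3, with Hey1 near the mean in library 1 (-0.02). Of the 14 marker lists, the ependymal (601, 1211, 795 and 997 TPM in libraries 1 to 4), oligodendrocyte (742, 2075, 1863 and 2398 TPM), erythroid (59.9, 641, 449 and 2342 TPM) and choroid plexus sums (12.8, 31.2, 16.6 and 23.5 TPM) were lower in libraries 1 and 3 than in the others. The endothelial or mural sum (40.7, 24.7, 43.7 and 37.8 TPM), most of it Pdgfrb, was higher there. The part of these in the levels of Hes1, Hes5 and Heyl was not tested. The libraries are too few for a correlation, and none is given.

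By TPM, the transcripts behind these levels were mostly coding, with exceptions that bear on the receptors. Over members of at least 10 TPM, coding transcripts held a median of 87.9% of the TPM of a gene, against 94.95% over the protein-coding genes at that level. Spen was the only one of these 28 members under 50%, as were 8.15% of those protein-coding genes. Notch4, at a lower level, was under 50% as well. Notch1 held 65.4 ± 8.65% on coding transcripts (SD, n = 4). Its full-length form Notch1-201 of 34 exons stood at 39.8 ± 1.86 TPM, and Notch1-202, a processed transcript of 406 bases over exons 24 and 25 (chromosome 2, 26468543 to 26469749), at 12.6 ± 5.97 TPM. By estimated counts nearly all of Notch1 lay on Notch1-201, with 5442, 5529, 4031 and 6193 of 5514, 5786, 4227 and 6443 in libraries 1 to 4. Notch1-202 held 58, 25, 54 and 35. The full-length form varied less between libraries than the sum over all transcripts did, which was 61.8 ± 7.97 TPM.

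**Figure D4:**
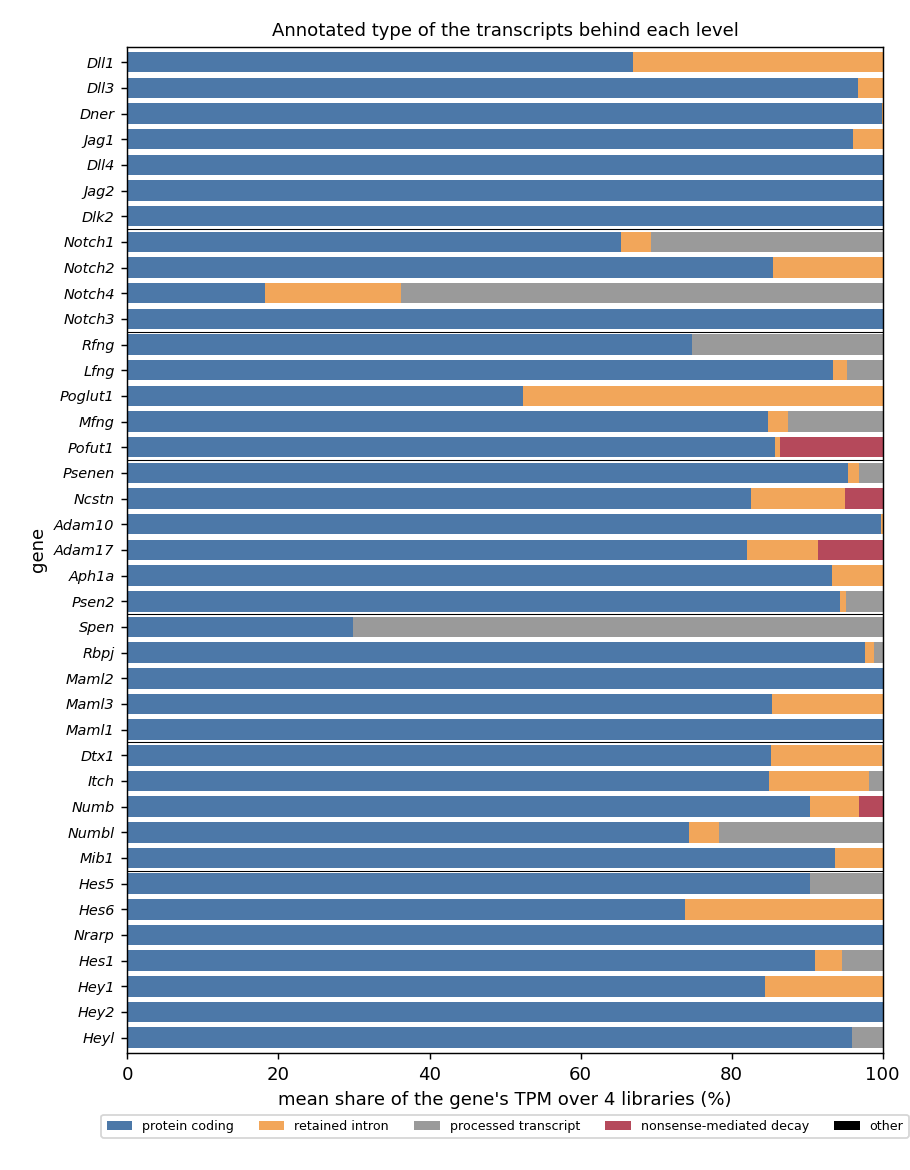
Share of each Notch pathway gene's TPM, as the mean over 4 libraries, by the annotated type of the transcripts that hold it. Short transcripts weigh more in TPM than in estimated counts. Coding transcripts hold 29.8% of the Spen level, 18.2% of the Notch4 level, 52.3% of the Poglut1 level and 65.4% of the Notch1 level, and all of the Nrarp and Hey2 levels.

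Among ligands, Dll1 held 66.9 ± 4.86% on coding transcripts, with 46.3 ± 13.5 TPM on Dll1-201 and 13.1 ± 8.20 TPM on the retained-intron transcript Dll1-202, which lies over exons 2 to 5 of 11. In estimated counts Dll1-201 held 1579 to 2543 and Dll1-202 22 to 227. Hes6 held 73.8 ± 3.17%, with 202 ± 22.7 TPM on Hes6-201 and 58.9 ± 8.04 TPM on the retained-intron transcript Hes6-202. Hes5 held 90.3 ± 0.786%. Counted on coding transcripts alone, Hes5 stood at 290 ± 61.3 TPM and Hes6 at 202 ± 22.7 TPM (SD, n = 4). Such shares depend on how the authors' quantification divided reads among overlapping transcripts. They also depend on transcript length, since short transcripts weigh more in TPM than in counts.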

How the data were processed

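The labels' protocols name the PicoPure kit for RNA, SMART-Seq v4 for cDNA from little input, MicroPlex v2 for libraries, and a HiSeq run of 100-base read pairs. The submitters' processing notes list mm10, kallisto and sleuth without versions; which transcripts were indexed is not given in the sources used here. Deposited values are estimated counts per transcript, in which reads shared by transcripts are divided by estimate. The deposited TPM values are those counts over effective length, scaled to a fixed total. Lengths and effective lengths, the other numbers per transcript, were deposited by the authors too.

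Transcripts were matched to GENCODE M21 (GRCm38, the assembly mm10 names) by identifier without version (98294 of 99567), and TPM was summed per gene. The 1273 others held 2.59 to 4.56% of TPM and were left out. Coordinates are counted from 1. One listed symbol, Nov, was not matched. One gene of the further lists is not reported here.

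limma 3.58.1 with a mean-variance trend tested log2(TPM + 1) against its value at 1 TPM, two-sided, over 19914 genes with a count (Benjamini-Hochberg, 0.05). Tested on simulated counts over 19914 genes with a dispersion of 0.1, it called 78% of genes set at 2 TPM, 100% at 4 TPM and 6.5% at 1 TPM. Gene pairs were compared within libraries with an exact sign-flip test. A pair was taken to differ beyond its spread where all 4 libraries had the same direction and the mean exceeded the SD. Gene ratios are on the log2(TPM + 1) scale and understate those of low genes. All 39 members were to be named, with the 2 highest and the lowest of each further list.

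The members and lists were chosen with earlier results of these data known. Alternatives were a pseudocount of 0.1, filters, rescaling, TMM, DESeq2 1.42.0 size factors, CPM, other transcript sums, edgeR 4.0.16 on counts rounded to whole numbers, and each library left out. Its quasi-likelihood F was formed from the deviances, since a design of 1 column is not taken by its test function. Software was R 4.3.3 and Python 3.11.15 with pandas 2.3.3. The low-input kit amplifies cDNA without molecular identifiers named in the labels, so limits cover counting error only. Promoter sequences are from RefSeq (GRCm38.p6).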

Additional observations from a re-analysis of the deposited data

Results flagged for a closer look

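Of the 39 members, 4 had a library far from the other 3: its gap to the nearest was, relative to the whole range of the 4 values, above Dixon's 95% critical value. For normally distributed values chance alone flags about 1 in 20 such groups. The share of all genes flagged by this rule was not computed, so the count is no result about the members. The receptor Notch1 stood at 73.7 TPM in library 3 against 57.4 to 58.4 TPM in the others, summed over its transcripts. Its full-length form Notch1-201 did not stand apart there, at 39.3 TPM against 37.4 to 41.6 TPM, while the short processed transcripts Notch1-202 and Notch1-204 were highest there, at 19.9 and 4.55 TPM on 54 and 15 estimated counts. The fringe enzyme Rfng stood at 88.7 TPM in library 3 against 54.6 to 59.1 TPM, with 58.0 TPM on the coding form Rfng-201 there against 42.7 to 47.6 TPM. Rbpj stood at 19.6 TPM in library 1 against 12.1 to 13.1 TPM. Maml1 stood at 2.52 TPM in library 2 against 1.30 to 1.41 TPM.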

How the results depend on the processing

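The count of members above 1 TPM was 36 and ran from 35 to 38 over 14 alternatives, 35 to 36 with a library left out. The count over all genes stayed within 1.5 times in 14 of 14. Of 546 values of single members, 534 kept their call. Jag2 and Maml1 became called with CPM, with TPM rescaled over nuclear protein-coding genes and with edgeR's quasi-likelihood test, and Jag2 with a minimum of 5 mean counts. Notch3 lost its call without a filter and without library 1, 3 or 4, and Notch4 with coding transcripts only. Of 561 pair ratios, 496 moved by less than the spread, 59 moved by more and 6 changed sign. With CPM and no length correction the log2 ratios that changed sign were 0.62 for Notch3 over Notch4, -0.10 for Dll3 over Dner, -0.28 for Mfng over Pofut1 and -1.05 for Psenen over Ncstn. With coding transcripts only they were 0.44 for Notch3 over Notch4 and 0.23 for Rbpj over Spen, both within their SD. The difference of role medians, receptors minus ligands, was -0.47. It was 0.0081 with means of members, -0.97 with the most abundant transcript and -1.19 with coding transcripts only. That of targets minus receptors was 1.80, 0.47 with CPM and 2.37 with coding transcripts only. Beyond the change that each alternative itself makes, the cause was not tested. The members' median SD of log2 values, 0.30, was 0.22 to 0.32 with a library left out. No paired analysis was possible because the libraries form 1 group. In data simulated with a dispersion of 0.1, 78% of genes at 2 TPM were called, so genes near that level can be missed with 4 libraries. Larger spreads, such as those of Jag2 (2.93 ± 2.42 TPM) and Dlk2 (1.49 ± 1.68 TPM), were not simulated, so the 78% does not hold for them.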
